A study of Mus musculus with 319 samples.

Results

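Thymic tuft cells are rare epithelial cells of the thymic medulla that share the taste-type signalling pathway of tuft cells in other organs, and they were examined here for the genes of voltage-gated sodium and calcium channels and of potassium channels. A gene was a member when its symbol began with Scn, Cacna, Cacnb, Cacng or Kcn followed by the subunit's number or letter, in both count tables. The members were 0.275% of 48795 gene entries: 93 reached 5 reads in at least 1 cell, 15 had reads but never 5 in a cell, and 26 had no read in any cell kept. A further 5 antisense or overlapping RNA entries with such symbols (Kcnab3os, Kcnd3os, Kcnmb4os1, Kcnmb4os2 and Kcnq1ot1) were left out.

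Single cells from pooled thymi of naive mice were sorted into wells and sequenced by Smart-seq2, which reads whole transcripts and has no molecular identifiers. Every group carried the Flare25/Flare25 reporter at Il25, an epithelial cytokine gene of tuft cells, and every cell passed the gate UVBlue-, CD11c-, CD45-, EPCAM+, MHCIIlo and Flare25+. The wild-type groups were of the strain C57BL/6.Il25 and came as the June5 set (31 wells) and the June29 set (95 wells) of batch 1, and as 92 wells of batch 2. The last group, 96 wells of batch 2, was of the strain C57BL/6.Il25.Aire and labelled Aire-/-, the notation for mice without functional Aire, the regulator of tissue antigen expression in medullary thymic epithelium. Mice were 6 weeks old, apart from 1 sample labelled 5 weeks, and of mixed sex. Each set was a single pool, so it is 1 sample without a replicate, and no pair of wells held identical counts. Error across animals is therefore unknown, no p-value was computed, and the 95% intervals given cover counting error only. Batch 2 also had a well of 50 cells of each genotype, and batch 1 had a well without a cell.

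Of 314 single-cell wells, 95.9% were kept: 29 in June5, 87 in June29, 89 in wild-type batch 2 and 96 in the set labelled Aire-/-. Set medians of gene reads per cell lay between 539655 and 1150167. At least 2 of 12 tuft markers were present in 29 of 29, 87 of 87, 88 of 89 and 95 of 96 cells of these sets, and Trpm5, a cation channel gated by calcium, was positive in at least 97.8% of cells in each. The targeted gene went against its label: its level, in reads per 1000000 gene reads of the set (CPM), was 7.84 for June5, 11.2 for June29, 18.9 for wild-type batch 2 and 152.7 for the cells labelled Aire-/-. Reads per gene cannot tell an intact from a disrupted transcript, and which part of the gene the allele lacks is not given in the sources used here. The genotype is therefore written as a label throughout. Markers of Aire-expressing epithelium (8 genes, Cd74 and H2-Aa among them) summed to 558, 1369, 1064 and 3687 CPM in the same order of sets. Most of each sum came from Cd74 (318, 826, 666 and 2149 CPM) and H2-Aa (180, 470, 331 and 1301 CPM), genes of MHC class II presentation. At least 2 of the 8 markers were present in 9, 31, 40 and 73 cells. Neuroendocrine-like markers were present, by the same measure, in 0, 3, 3 and 5 cells, and neural or Schwann markers in 0, 1, 0 and 0 cells. B cell markers were present in 9, 23, 5 and 8 cells.

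Voltage-gated channels open when the membrane potential changes, and their pore-forming alpha subunits decide which ion passes, while auxiliary subunits set trafficking and gating. Potassium channels hold or restore the resting potential, sodium channels drive the upstroke of action potentials, and calcium channels couple depolarisation to calcium entry. In taste cells and other tuft cells, receptor signalling through phospholipase C and inositol trisphosphate releases stored calcium, which opens Trpm5 and depolarises the cell. Which of these channel genes a thymic tuft cell expressed, and how alike the sets were, is the question here.

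A cell was called positive for a gene at 5 reads. The 26 members without a read in any cell included Cacna1s, the alpha1 subunit of skeletal muscle, the potassium channel genes Kcna4, Kcna5, Kcnc2 and Kcnd2, and the KCNQ partner genes Kcne1, Kcne2 and Kcne4. Positive in at least 25% of cells of all 4 sets were 3 members: Kcnq1, Kcnq3 and Kcnh8. Kcnq1 and Kcnq3 encode alpha subunits of the slowly activating KCNQ (Kv7) family, and Kcnh8 encodes a voltage-gated potassium channel of the ether-a-go-go family. In 10% of cells of any set, 30 members were positive. The matching shares over all genes are not given here, so these counts do not show channel genes to be sparser than other genes. The count of 3 moved to 5 when a single read made a cell positive, Cacna2d2 among them, and to 1, Kcnq1, when every cell was thinned to 231697 reads.

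The coding sequences of the leading potassium channels are shown at the codons of the selectivity filter, the part of the pore that passes potassium and holds back sodium. The motif ACNNTNGGNTNNGGN, where N is any base, was searched in frame and on the coding strand in the longest coding sequence of each gene of the GENCODE M21 annotation (build GRCm38). It was present in 0.866% of 21584 genes, and in 64 members (48.1% of those with such a sequence). Of the 9 pore-forming potassium channel genes among the 12 members with the highest level per kb, 7 held it, 5 of which are shown, and Kcnh8 and Kcnh6 did not hold these letters. Each line is 45 bases, 5′ to 3′, with the 15 matching bases in capitals.
Kcnq1: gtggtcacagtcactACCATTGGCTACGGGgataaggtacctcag
Kcnn4: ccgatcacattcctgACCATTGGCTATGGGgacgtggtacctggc
Kcns3: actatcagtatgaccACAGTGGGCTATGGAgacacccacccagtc
Kcnj13: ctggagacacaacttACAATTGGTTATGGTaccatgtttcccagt
Kcnj5: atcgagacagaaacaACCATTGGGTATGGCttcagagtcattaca
The capitals lie at chr7:143191432-143191446 (plus strand, exon 7) for Kcnq1. They lie at chr7:24379198-24379212 (plus strand, exon 4) for Kcnn4 and at chr12:11091575-11091589 (minus strand, exon 3) for Kcns3. Those of Kcnj13 lie at chr1:87389021-87389035 (minus strand, exon 2) and those of Kcnj5 at chr9:32322559-32322573 (minus strand, exon 3). Kcnq1 and Kcnn4 were identical at 31 of the 45 bases, the most of any pair shown, and Kcns3 and Kcnj13 at 16, the fewest. Words of 50 bases were compared between annotated transcripts in the same orientation only, so overlaps with genes of the opposite strand were not covered. None was shared between the transcripts of Kcnq1 and those of any other gene. Kcnq3 shared 12 of 14656 such words, none of them with a member.

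Kcnq1 had the highest level of all members per kb of exon, by the median over the wild-type sets. Its level was 122.7 CPM in June5, 131.04 in June29, 142.9 in wild-type batch 2 and 135.6 in the cells labelled Aire-/-, or 29.98, 32.02, 34.9 and 33.1 CPM per kb. Positive cells made up 51.7%, 50.6%, 62.9% and 56.2% of the sets in that order. The exact intervals of the sets overlap, and that over all cells is 50.3% to 61.8%. Of the 32 members that reached 20 CPM or 10% of cells in a set, Kcnq1 had the most even level. No difference between the sets compared exceeded 0.22 on the log2 scale, on which 1 CPM is added to each level. Its exons overlap Kcnq1ot1, an RNA of the opposite strand, over 2.96% of their length. Kcnq1ot1 itself stood at 116.5, 281, 137.6 and 81.2 CPM. It was positive in 54.4% of cells with Kcnq1 and in 42.4% of those without, and the share was higher with Kcnq1 in each of the 4 sets. Whether the counting used strand is not given in the sources used here, and the part of the overlap in these values was not tested. For scale, Kcnq3 was positive in 49.1% of cells with Kcnq1 and 37.9% of those without, and Kcnn4 in 23.1% and 26.5%.

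Kcnq3 followed in the same family. June5 held it at 106.9 CPM, June29 at 160.8, wild-type batch 2 at 108.8 and the cells labelled Aire-/- at 61.01, with 62.1%, 58.6%, 39.3% and 30.2% of cells positive. It was lowest in the cells labelled Aire-/-, in level and in share. Per kb, Kcnq3 was below Kcnq1 in every set (7.27, 10.9, 7.40 and 4.15 CPM per kb), with 14.7 kb of annotated exons. After thinning, the shares of Kcnq3 were 47.8%, 45.9%, 29.1% and 23.8%, with both batch 1 sets again above both batch 2 sets. Kcnq5, another KCNQ gene, never reached 5 reads in a cell.

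**Figure D1:**
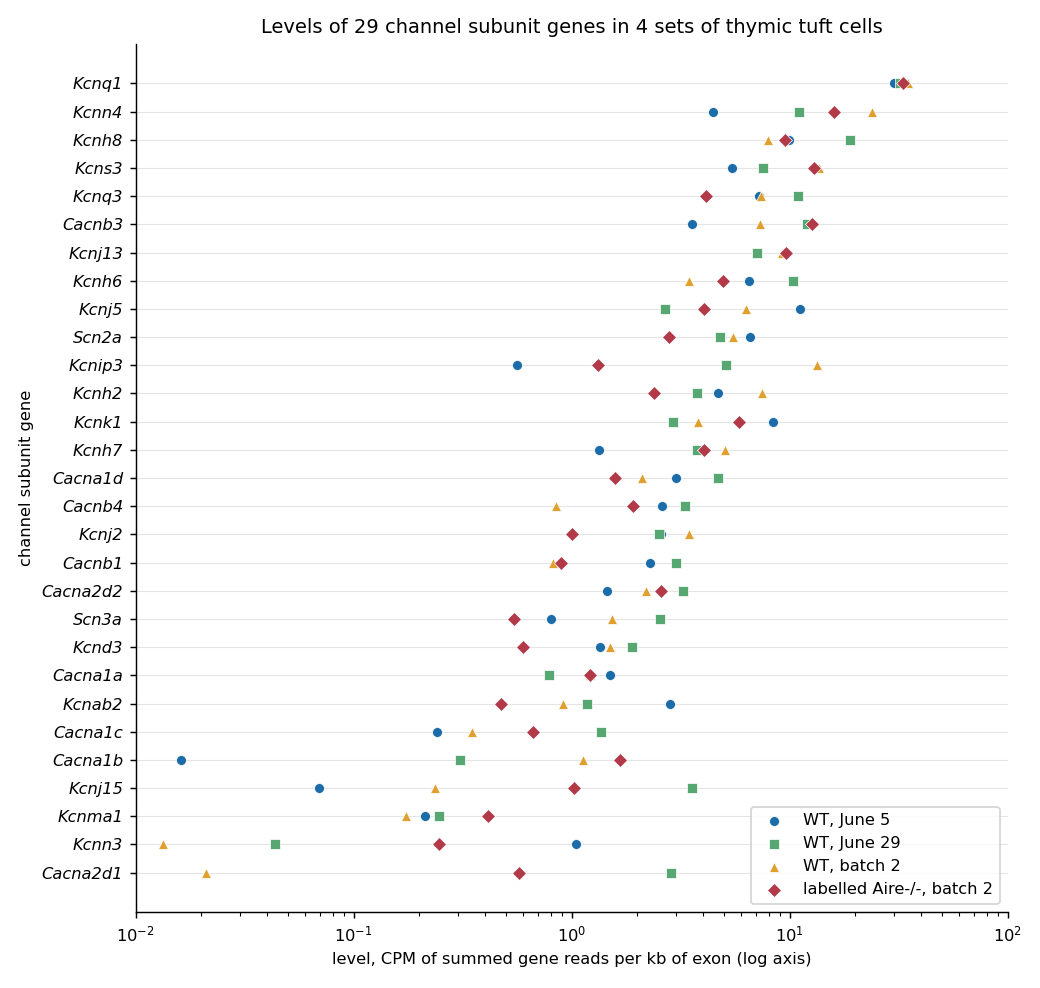
Level of 29 named members in each set, in CPM per kb of merged exons on a log axis, from the highest (Kcnq1) at the top. Each point is the summed reads of 1 set, and a set without a read has no point. Kcnq1 lies at 29.98 to 34.9 in all 4 sets, while Kcnip3 spreads from 0.564 to 13.3.

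At least 1 of the 5 KCNQ members was positive in 79.3% of June5 cells, 79.3% of June29 cells, 82.02% of wild-type batch 2 cells and 68.8% of the cells labelled Aire-/-. Kcnq3 was positive in 49.1% of cells with Kcnq1 and in 37.9% of those without. The pair was found together 1.13 times as often as the product of the shares, below the median of 1.18 over 219 pairs of named members, so it does not stand out. As a description of cells that share libraries and differ in depth, this carries no test.

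Kcnh8 was the most widespread of the ether-a-go-go family. Levels were 45.3 CPM for June5, 86.1 for June29, 36.2 for wild-type batch 2 and 43.5 for the cells labelled Aire-/-, with 34.5%, 27.6%, 33.7% and 38.5% of cells positive. The highest level came with the lowest share, and 51.95% of the June29 reads came from 1 cell. Kcnh7, a relative of the cardiac potassium channel gene Kcnh2, stood at 20.3, 56.9, 77.1 and 61.7 CPM, with 13.8%, 20.7%, 21.3% and 18.8% of cells positive. Kcnh7 was lowest in June5 in level and in share. Kcnh6 stood at 23.1, 36.9, 12.3 and 17.5 CPM, with 10.3%, 17.2%, 8.99% and 14.6% of cells positive, and 89.4% of its June5 reads came from 1 cell. Kcnh2, best known for the rapid repolarising current of the heart, stood at 22.6, 18.2, 36.2 and 11.5 CPM, with 20.7%, 9.20%, 14.6% and 13.5% of cells positive. At least 1 of the 8 KCNH members was positive in 55.2%, 54.02%, 57.3% and 63.5% of cells, so the family was the second most common after KCNQ.

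Kcnn4, the intermediate-conductance potassium channel that calcium opens through calmodulin, differed between the wild-type sets. June5 had 22.8 CPM of it, June29 56.7, wild-type batch 2 121.6 and the cells labelled Aire-/- 82.05. Its shares were 13.8%, 20.7%, 26.97% and 29.2%. The wild-type batch 2 level was 2.36 above June5 and 1.09 above June29 on the log2 scale, with shares 13.2 and 6.28 points apart, short of the 15 points the size rule below asks for. The other calcium-activated genes were sparse. Kcnn3 was positive in 1.12% to 13.8% of cells and Kcnma1, the large-conductance channel, in 3.12% to 10.3%.

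Among the remaining potassium channels, Kcns3, an electrically silent subunit that modifies other voltage-gated potassium channels, stood at 17.3, 23.8, 43.3 and 41.1 CPM in the order June5, June29, wild-type batch 2 and labelled Aire-/-. It was positive in 10.3%, 10.3%, 12.4% and 22.9% of cells. Kcns3 was thus most common in the cells labelled Aire-/-. Of the 27 Kv1 to Kv9 members 16 had a read, and 3 were positive in 10% of cells of any set, among them Kcns3 and Kcnd3, an A-type Kv4 channel gene. Kcnd3 was positive in 10.3%, 11.5%, 8.99% and 6.25% of cells.

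Inward rectifiers, which pass potassium most readily into the cell and stabilise the resting potential, were scattered. Kcnj5, a subunit of G protein-gated channels, stood at 51.97, 12.6, 29.6 and 18.9 CPM, with 20.7%, 13.8%, 12.4% and 14.6% of cells positive. Kcnj13 had no read in June5, which allows a share of up to 10.3% there, and stood at 9.01, 11.7 and 12.2 CPM in the other sets, with 5.75%, 10.1% and 8.33% of cells positive. However, 49.1% of its exon length overlaps Gigyf2 on the opposite strand. Kcnj13 was positive in 22 cells, and Gigyf2 in 63.6% of them against 31.9% of the other cells. By set these shares were 40% and 40.2% in June29, 77.8% and 33.8% in wild-type batch 2 and 62.5% and 27.3% in the cells labelled Aire-/-. Without strand, reads of the genes cannot be told apart in the shared part. Kcnj2, a classical strong inward rectifier, stood at 13.99, 13.7, 18.8 and 5.43 CPM, with 6.90%, 14.9%, 11.2% and 7.29% of cells positive, and 94% of the June5 reads came from 1 cell. Kcnj15 reached 22.4 CPM in June29 alone, where 6.90% of cells were positive. Tandem-pore channels, the background leak channels, were rare: Kcnk1 alone of 14 reached 10% in a set, with 17.2% of June5 cells and 4.49% to 6.25% of the others.

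**Figure D2:**
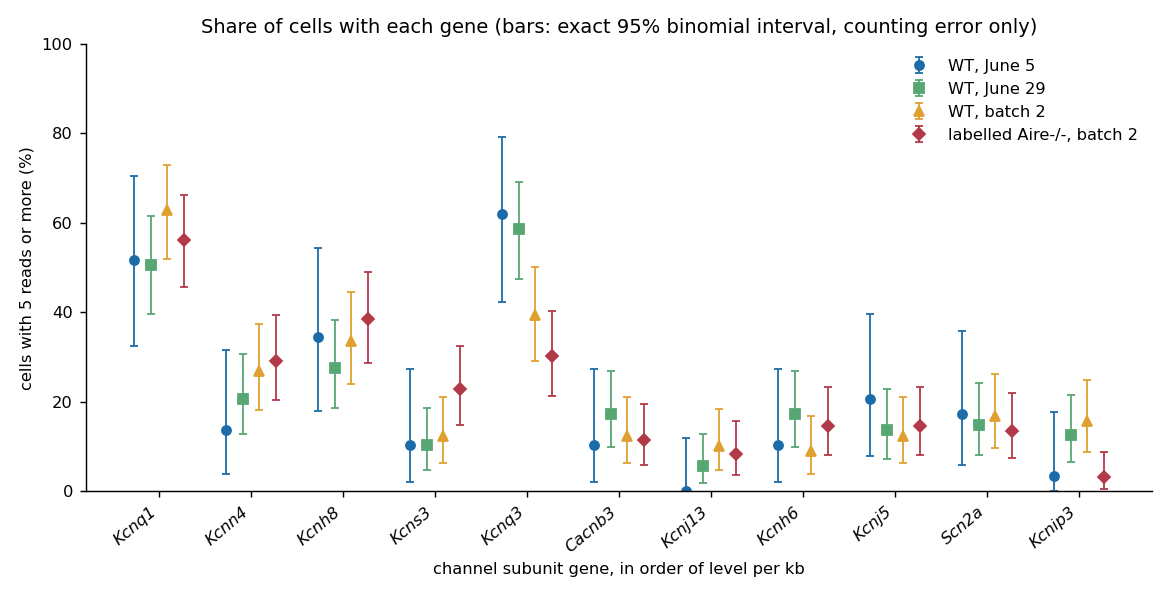
Share of cells with at least 5 reads of each of 11 members with the highest levels per kb, by set. Points are percentages and bars are exact 95% binomial intervals, which cover counting error only. Kcnq1 lies between 50.6% and 62.9% in all 4 sets, and Kcnq3 runs from 62.1% in June5 to 30.2% in the cells labelled Aire-/-.

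Single auxiliary subunits of potassium channels were sparse. By the median level per kb over the wild-type sets the highest was Kcnip3, a calcium-binding protein of the recoverin family that modulates Kv4 channels and also acts as a transcriptional repressor. Kcnip3 reads made up 2.00 CPM of June5, 18.04 of June29, 47.2 of wild-type batch 2 and 4.70 of the cells labelled Aire-/-. Its shares were 3.45%, 12.6%, 15.7% and 3.12%. Wild-type batch 2 was high and both June5 and the cells labelled Aire-/- were low: wild-type batch 2 exceeded June5 by 4.01 on the log2 scale and the cells labelled Aire-/- by 3.08. Of 17 auxiliary members, 12 had a read and only Kcnip3 and Kcnab2, a Kv1 beta subunit, were positive in 10% of cells of a set. In June5 Kcnab2 was positive in 17.2% of cells, more than Kcnip3.

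Voltage-gated sodium channels were found in a minority of cells. Scn2a, a neuronal alpha subunit, had 83.7 CPM in June5 cells, 61.1 in June29 cells, 70.2 in wild-type batch 2 and 35.6 in the cells labelled Aire-/-. It was positive in 17.2%, 14.9%, 16.9% and 13.5% of cells, and the median positive cell held 495, 313, 382 and 203 CPM. Scn3a stood at 9.99, 31.5, 19.1 and 6.75 CPM, with 10.3%, 21.8%, 12.4% and 10.4% of cells positive. At least 1 of the 10 alpha subunits was positive in 27.6%, 34.5%, 24.7% and 21.9% of cells. None of the 4 beta subunits reached 10% in a set, and together they were positive in 0%, 5.75%, 3.37% and 0% of cells.

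Scn2a and Scn3a were often found in the same cells. Of 46 cells positive for Scn2a, 28 were positive for Scn3a (60.9%), against 15 of the other 255 cells (5.88%). The number expected from the product of the shares, summed over the sets, is 6.56, so the pair occurred together 4.27 times as often. In the sets in turn the ratio was 5.80, 3.87, 4.32 and 4.43, and after thinning it was 4.21. Among the 496 pairs of the 32 named members, 219 had an expected number of at least 5, with ratios from 0.355 to 4.27 and a median of 1.18, so this pair was the highest. It was singled out after the values were seen, and its cells share libraries and differ in depth, so it is a description without a test. Kcnh7 joined them: it was found with Scn2a in 27 cells against 9.02 expected, and with Scn3a in 26 against 8.57. All 3 genes were positive in 18 cells, namely 1, 6, 6 and 5 of the sets in turn. Those cells had a median of 976233 gene reads, against 684698 in the 216 cells with none of the 3.

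The 3 genes lie on chromosome 2 (GRCm38), Scn3a and Scn2a side by side and Kcnh7 2.27 Mb from Scn3a with other genes between. Kcnh7 lies at chr2:62693414-63184287, Scn3a at chr2:65457118-65567627, both on the minus strand, and Scn2a at chr2:65620771-65767447 on the plus strand, 53.1 kb from Scn3a. Across 8932 genes with an expected number of at least 5, Scn3a had the highest ratio with Scn2a and Kcnh7 the 14th highest. The median gene had a ratio of 1.11, and 1.61% of genes reached 2. Of the 36 gene entries between the outer ends of Kcnh7 and Scn9a, the other genes that common were Gca and Csrnp3. Gca, which overlaps the end of Kcnh7, had a ratio of 1.35, and Csrnp3 had 1.63. Below that expected number, Scn9a was found with Scn2a in 11 of its 13 positive cells (ratio 5.56) and Scn1a in 4 of 5 (5.19). The ratio was 3.78 for Gm13594, positive in 5 cells, and at most 1.95 for the other rarer entries with a positive cell. Scn2a and Scn3a are similar in sequence, and 529 words of 50 bases occurred in transcripts of both, which with words shared with other genes came to 5.76% of the words of Scn2a and 6.49% of those of Scn3a. Scn1a and Scn9a also share such words with Scn2a. In the 28 cells the ratio of Scn3a to Scn2a reads ran from 0.0120 to 25.7 with a median of 0.156. The part of the shared words in finding these genes together was not tested.

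**Figure D3:**
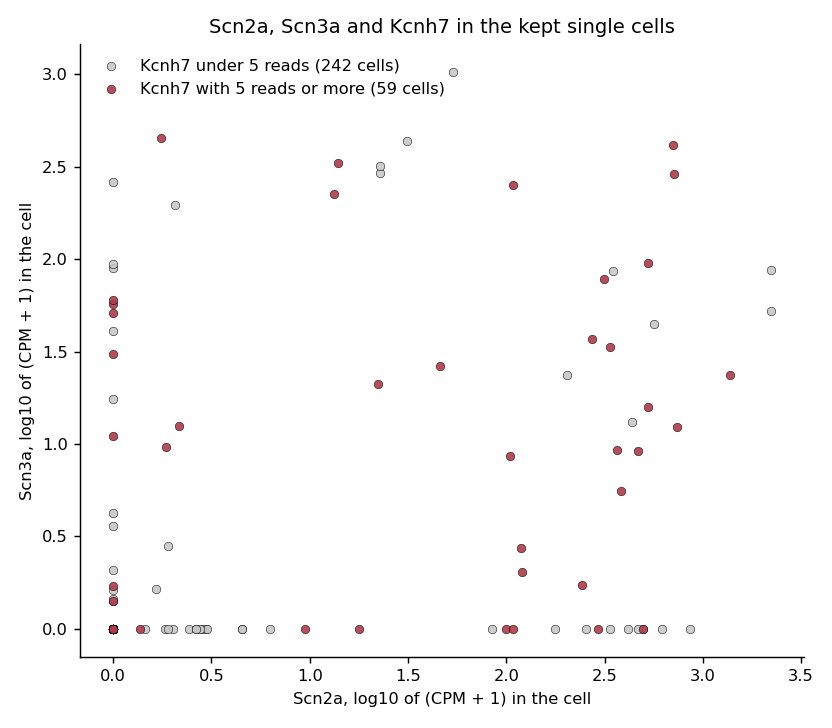
Scn2a against Scn3a in each kept cell, as log10 of CPM plus 1, with the 59 Kcnh7-positive cells in red. Most cells lie at 0 on both axes, and 26 of the 43 Scn3a-positive cells are positive for Kcnh7.

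Calcium channel pore subunits were shared out among 4 genes that reached 10% in a set. Among alpha1 subunits, Cacna1d, an L-type channel that opens at relatively negative potentials, stood at 37.9, 59.04, 26.4 and 19.8 CPM in the order June5, June29, wild-type batch 2 and labelled Aire-/-. Its shares were 27.6%, 26.4%, 22.5% and 18.8%. Cacna1a, the P/Q-type subunit, was positive in 13.8%, 12.6%, 15.7% and 20.8% of cells, and Cacna1c and Cacna1b reached 12.5% and 11.5% at most. At least 1 of 10 alpha1 members was positive in 44.8%, 49.4%, 44.9% and 54.2% of cells.

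Of the auxiliary calcium channel subunits, Cacnb3 stood at 14.4, 48.1, 29.2 and 50.7 CPM, with 10.3%, 17.2%, 12.4% and 11.5% of cells positive. In the cells labelled Aire-/-, 1 cell held 56.3% of the Cacnb3 reads. The difference from wild-type batch 2 was 0.78 on the log2 scale with all cells. Without that cell, and with all wild-type cells kept, it was -0.37. Cacnb4 stood at 23.3, 29.7, 7.57 and 17.1 CPM, with 13.8%, 17.2%, 7.87% and 10.4% of cells positive, and overlaps A430018G15Rik of the opposite strand over 15.99% of its exons. Cacnb1, the beta subunit known from skeletal muscle, was positive in 6.90%, 13.8%, 5.62% and 3.12% of cells. Cacna2d2, an alpha2delta subunit, was evenly spread, with 20.7%, 20.7%, 19.1% and 17.7% of cells positive at 11.5 to 25.9 CPM. Its relative Cacna2d1 was uneven: no read in June5, 35.5 CPM in June29 with 52.6% of reads from 1 cell, and 0.262 and 7.09 CPM in the others. The 8 gamma subunits together were positive in 0%, 3.45%, 5.62% and 5.21% of cells. A cell positive for Cacna1d was positive for Cacnb3 in 18.8% of cases, against 11.6% of other cells, and for Cacna2d2 in 18.8%, against 19.4%.

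The number of members positive in a cell had a median of 5 in June5, 6 in June29, 5 in wild-type batch 2 and 4 in the cells labelled Aire-/-. The highest cells held 16, 18, 17 and 12. Cells with none numbered 1, 2, 2 and 0. After thinning, the median number with at least 1 read was 8, 7, 6 and 5. The summed level of all members was 985, 1300, 1139 and 888 CPM, without correction for gene length. Bitter taste receptor genes, another family read 1 cell at a time, tracked the members only loosely. Across the thinned cells of a set, Spearman's rho between the numbers of members and of Tas2r genes with a read was 0.01, 0.26, 0.23 and 0.28 (23, 85, 79 and 84 cells, Pearson's r 0.01, 0.15, 0.23 and 0.38).

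**Figure D4:**
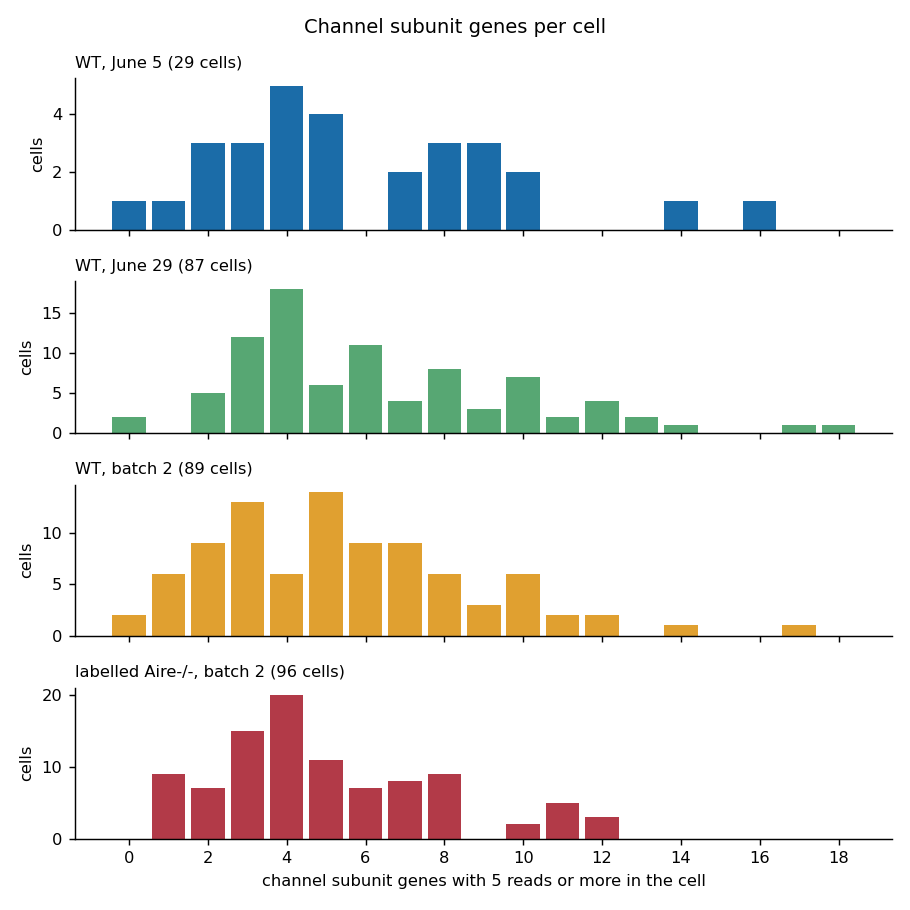
Number of cells (y) by the number of members with at least 5 reads in the cell (x), 1 panel per set. The medians are 5, 6, 5 and 4, and the middle 50% of cells lie between 3 and 8 members in June5, 4 and 8 in June29 and 3 and 7 in both batch 2 sets.

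For comparison there was a list of 38 other genes of membrane potential and calcium handling, including the tuft markers Trpm5 and Plcb2. Of these, 11 were positive in at least 25% of cells of all sets, among them Trpm5, Trpm7, Calhm3, Plcb2, Itpr2, Atp1b1, Atp2a2, Atp2a3, Atp2b1 and Ano6. Trpm5 stood at 481, 371, 355 and 303 CPM per kb, against 29.98, 32.02, 34.9 and 33.1 for Kcnq1. Calhm3, a subunit of the taste cell ATP-release channel, which opens on depolarisation, stood at 380, 253, 204 and 412 CPM per kb. Calhm1, also on the list, stood at only 3.54, 11.5, 8.48 and 16.9 CPM per kb, with 3.45% to 13.5% of cells positive. Of the 38 genes Calhm3 alone passed the size rule given next, higher in the cells labelled Aire-/- than in wild-type batch 2 (78.1% against 57.3% of cells). None passed in the other comparisons.

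Between sets, genes were picked by a rule of size in place of a test. The higher set had to reach 20 CPM, the log2 difference had to reach 1, and the shares had to differ by 15 points the same way. No member passed it in any of the 4 comparisons. For the cells labelled Aire-/- against wild-type batch 2, 0 of 14 members with 20 CPM were higher and 0 lower, where 1.02% of all 8267 genes at that level were higher and 0.399% lower. For June29 against June5, 0 of 20 passed, where 1.81% of genes were higher and 3.4% lower. For wild-type batch 2 against June5, 0 of 16 passed (1.9% of genes higher and 3.97% lower). For wild-type batch 2 against June29, 0 of 20 passed (3.38% higher and 2.68% lower). At such background shares a count of 0 among so few members does not set them apart from other genes. A member positive in under 15% of cells of both sets could not pass. Cacnb3, Kcnj5 and Kcnh2 were such members for the cells labelled Aire-/- against wild-type batch 2. The comparisons share sets and are not independent of each other.

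Below that rule, most of the abundant members had a lower level in the cells labelled Aire-/-. Of the 14 members at 20 CPM, 11 had a lower level than in wild-type batch 2, and their median log2 difference was -0.48, beside -0.03 and 52.3% lower for all genes at 20 CPM. Shifts at least as large were seen between wild-type sets. The median was 0.64 for 20 members in June29 against June5 (all genes -0.11) and -0.55 for 20 members in wild-type batch 2 against June29 (all genes 0.16). At 5 CPM the medians were -0.08 for 43 members and -0.07 for all genes, so the lower level was seen among the more abundant members alone. On plates 1 and 2, which each held cells of both labels, 8 of the 14 were lower on both. In the 50-cell wells, 10 of the 14 were lower in the well labelled Aire-/-. On both plates and in the 50-cell wells alike, 5 were lower, among them Kcnh7, Kcnj5, Kcnn4 and Scn2a. The matching shares over all genes are not given here, so these counts do not set the members apart. The plates split the same cells that were pooled, so they are not a separate sample.

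Kcnip3 had the largest of these differences, -3.08, and came nearest to the rule, with shares 12.6 points apart. It was lower on plate 1 by 3.61 and on plate 2 by 2.32. It passed the rule on plate 1 alone, where 4.11% of all genes at 20 CPM passed (1.42% with all cells). In the 50-cell wells it went the other way, with 2.78 CPM (2 reads) in the wild-type well and 14.8 CPM (8 reads) in the well labelled Aire-/-. Kcnh2 was lower by 1.57, with shares of 13.5% and 14.6%, and Scn2a by 0.96. Kcnq3 was lower by 0.82, but it was 0.71 higher on plate 1 and 2.00 lower on plate 2. Without the wild-type cell with most Kcnq3 reads, and with all other cells kept, the difference was -0.30. Kcnq1 differed by -0.08. The summed markers of Aire-expressing epithelium, mostly Cd74 and H2-Aa reads, were higher in the cells labelled Aire-/- as given above. They move with this comparison, and their part in it was not tested.

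**Figure D5:**
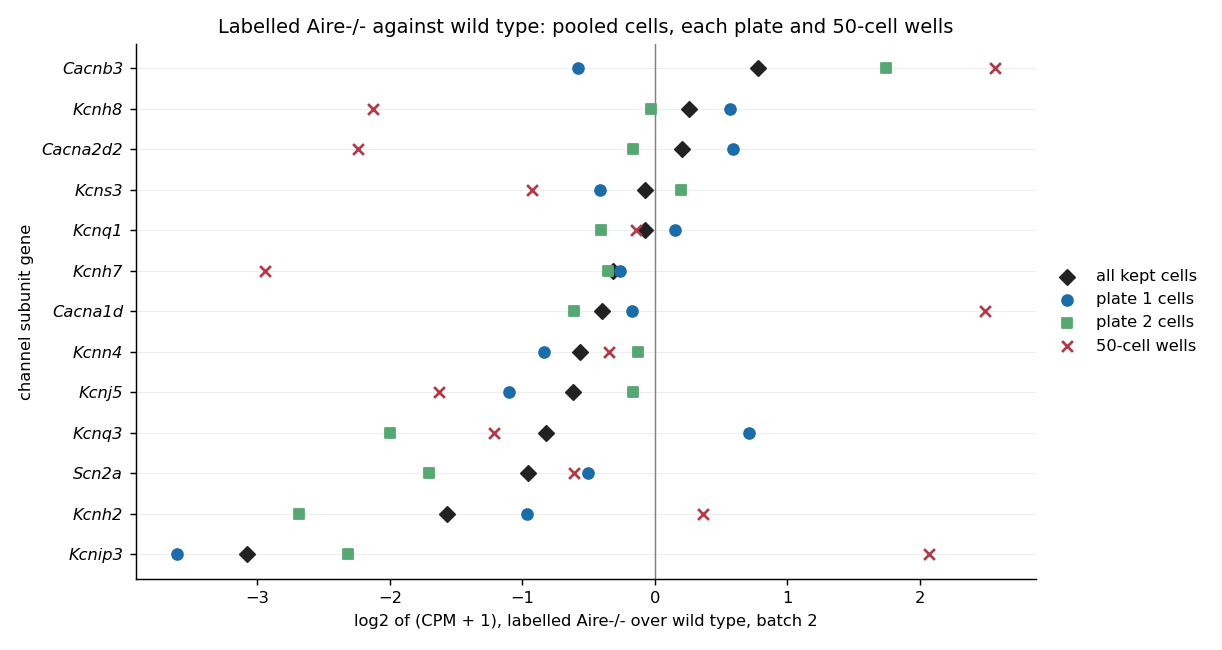
Log2 difference between the cells labelled Aire-/- and wild-type batch 2 for 13 members with 20 CPM in either set, for all kept cells (diamonds), within each plate and between the 50-cell wells (crosses). Of the 13 diamonds 10 lie below 0, and the plates and 50-cell wells disagree in sign for Cacnb3, Kcnq3 and Kcnh8 among others.

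The pools of 50 cells differed from each other in their leading members. The wild-type well held Kcnq3 at 138.8 CPM, Kcnh8 at 116.6 and Kcnq1 at 81.9, and the well labelled Aire-/- held 59.3, 25.9 and 74.1. The exact Poisson intervals of Kcnq1 overlapped between the wells (62.3 to 105.6 and 52.96 to 100.9 CPM), whereas those of Kcnh8 did not (92.99 to 144.3 and 14.2 to 43.5 CPM). These intervals treat each read as a separate count, though the libraries have no molecular identifiers, and the matching share over all genes is not given. In the single cells of batch 2 Kcnh8 went the other way (36.2 CPM in wild type and 43.5 under the label), while Kcnq1 and Kcnq3 did not. Kcne1l, a KCNE-type auxiliary gene named here after its values were seen, was the highest member of the well labelled Aire-/- with 48 reads (88.95 CPM), although all 96 single cells with that label held 3 reads of it together. With a single well of each, this compares these wells and not the genotypes, and in such pools fewer positive cells and less RNA per cell cannot be told apart. The well without a cell held 9892 gene reads, of which 9 were from members, at most 2 for any of them, fewer than made a cell positive.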

How the data were processed

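Smart-seq2 libraries of 314 sorted single cells, a 50-cell well of each genotype and 1 well without a cell were analysed; 2 wells without a cell in batch 2 were not analysed here. The authors deposited raw read counts per gene and well, and per the submitters' processing notes reads were handled with STAR, featureCounts 1.5.3, Subread and R 3.4.0 on build GRCm38. Neither the annotation release nor the strand setting of the counting is given in the sources used here. A deposited table of scores per gene and well, whose making is not described in the labels, gave no value here; its list of wells served as an alternative. A deposited table of labels gave each well's plate. Spike-in entries stayed out of the totals, and no column of an unmapped sample was present.

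A cell was kept (301 in all) if its gene reads reached 10000, its genes 1000 and its mitochondrial share stayed within 20%, and no doublet caller was run. Reads were summed per set, so a set is 1 sample, and CPM is relative to the set's gene reads. Levels per kb used merged exon lengths from GENCODE M21 (GRCm38). A fold is log2 of (CPM + 1). Shares of cells with at least 5 reads carry exact Clopper-Pearson intervals and read sums exact Poisson intervals, both at 95%; for a share of 0 the limit is 3 cells of the set. Where depth mattered, cells were thinned to 231697 reads, the 10th percentile over kept cells. The 134 members were chosen by symbol. Of these, 32 were named because they reached 20 CPM or 10% of cells in any set, and the 12 highest by median CPM per kb over the wild-type sets were described in full, apart from items that are not reported here. A few others, such as Kcne1l, were named after their values were seen. Members, lists and rules were chosen with earlier results of these data known. The size rule was tested on simulated data. Alternatives changed the reads that make a cell positive, the depth, the cells kept, the plate and the scaling (edgeR 4.0.16 TMM and DESeq2 1.42.0 size factors, used for scaling only). Python 3.11.15, pandas 2.3.3, numpy 2.4.6, scipy 1.17.1 and matplotlib 3.10.9 were used.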

Additional observations from a re-analysis of the deposited data

How the results depend on the processing

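The number of members positive in at least 25% of cells of all 4 sets was 3. It was 2 with the wells of the score table, 4 without cells that held haematopoietic or Aire-expressing epithelial markers (15, 41, 44 and 23 cells left), 5 when 1 read made a cell positive and 1 when cells were thinned to one depth. The count of members past the size rule was 0 in each comparison. At 1 read it was 3 for June29 against June5 (Cacna2d2, Kcnh7 and Kcnn4 higher), 1 for wild-type batch 2 against June5 (Kcnn4 higher) and 1 for wild-type batch 2 against June29 (Kcnh6 lower). In these comparisons 9.14%, 7.39% and 8.62% of all genes at 20 CPM passed at 1 read, against 5.2%, 5.88% and 6.06% at 5 reads. Thinned, the count of members was 1 for June29 against June5 (Kcnj5 lower), where 10.2% of all genes passed. On plate 1 alone it was 1 for the cells labelled Aire-/- (Kcnip3 lower), where 4.11% of all genes passed. The planned recomputation of folds for members past the rule had none to follow; folds by plate, without the cell with most reads and in the 50-cell wells stand in the report for the members named there. Leaving out cells with B cell, thymocyte or myeloid markers was an alternative chosen after seeing the data, and it left both kinds of count as they were (3 and 0). No paired analysis was possible because each set is 1 pooled sample and well numbers do not pair cells. The number of cells limits what a share of 0 can show to 3.13% in the largest set and 10.3% in June5.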
